A study of Mus musculus with 4 samples.

Results

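Ephrins and Eph receptors were examined in CD51+;CD200+ skeletal stem/progenitor cells of the cranial sutures and the growth plate. The genes were taken by symbol: the ephrin genes *Efna2*, *Efna4*, *Efna5*, *Efnb1*, and *Efnb2*, and the receptor genes *Epha3*, *Epha4*, *Ephb2*, *Ephb3*, and *Ephb4*. These 10 genes belong to the 22 genes of the family, among 23946 symbols in each library. Cells were sorted from wild-type CD-1 mice on postnatal day 3, from 3 sutures of the skull, the posterior frontal (PF), the sagittal (SAG), and the coronal (COR), and from the growth plate (GP) of the tibia. All 4 libraries share strain, genotype, and age, and each tissue has 1 library; sutures of many mice were harvested for each age, so a library does not stand for 1 animal. The sort also excluded leukocyte, erythroid, endothelial, and further stromal antigens. Of the genes of the sorted antigens, *Itgav* (CD51) was at 6.20 to 15.0 FPKM (fragment counts scaled by the authors to transcript length and sequencing depth) and *Cd200* at 23.5 to 62.6 FPKM, both detected in every library. Among the antigens sorted against, *Ptprc* (CD45), *Tek* (Tie2), and *Thy1* stayed at 0.63 FPKM or less, *Eng* (CD105) was at 0.68 to 1.70, and *Enpep* (6C3) was at 7.05 in PF, 3.74 in COR, 2.74 in SAG, and 1.39 in GP. Of these sutures only PF fuses in the young mouse, but by the paper all 3 are still patent on postnatal day 3. The comparison asks how cells of a suture that will fuse differ from those of sutures that stay patent, with GP as the reference. Without replicates there is no spread to set a difference against, so no test was made and no order of neighbouring levels was tested.

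Ephrins are ligands bound to the cell surface. A-class ephrins are held by a lipid anchor, and B-class ephrins cross the membrane and can signal back into the cell that carries them. Eph receptors are receptor tyrosine kinases, grouped as EphA and EphB by the class they mainly bind, and contact between ligand and receptor on neighbouring cells guides repulsion, adhesion, and the keeping of tissue boundaries. In the skull, the osteogenic fronts and the mesenchyme of a suture form such a boundary. *EFNB1* is the gene of craniofrontonasal syndrome, *EFNA4* has been linked to coronal synostosis in patients, and mouse *Epha4* acts with *Twist1* at the coronal suture. In bone, ephrin-B2 and EphB4 are known for signalling between osteoclasts and osteoblasts.

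The clearest pattern was in PF-CD51+;CD200+ cells, among genes chosen with earlier results of these data known. The shares of all genes set beside the counts below are therefore a description and not independent support. Of the 10 genes, 7 were highest in PF: *Efna2*, *Efna4*, *Efnb1*, *Epha4*, *Ephb2*, *Ephb3*, and *Ephb4*. Of the 13998 genes that reached 1 FPKM in any library, 35.2% were highest in PF. *Efna5* and *Efnb2* were highest in COR, and *Epha3* was highest in GP. With GP included, 0 of the 10 were lowest in PF, next to 35.8% of all genes. Among the sutures alone, PF was lowest for *Efna5*, at 5.44 FPKM against 7.16 in SAG and 9.45 in COR. It was also the lowest suture for *Efnb2*, at 3.00 FPKM against 4.22 in SAG and 4.85 in COR. GP lay only slightly below PF for these genes, at 4.91 and 2.56 FPKM. In the whole family, 11 of the 19 genes that reached 1 FPKM were highest in PF, and 8 of 19 after the GC correction described below. The sum over the 10 genes was 258.2 FPKM in PF, compared with 158.4 in COR, 149.4 in GP, and 125.1 in SAG. Transcript GC content moved with this pattern, as set out below: after a correction for it, 5 of the 10 genes were highest in PF, next to 32.9% of 12494 genes.

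**Figure D1:**
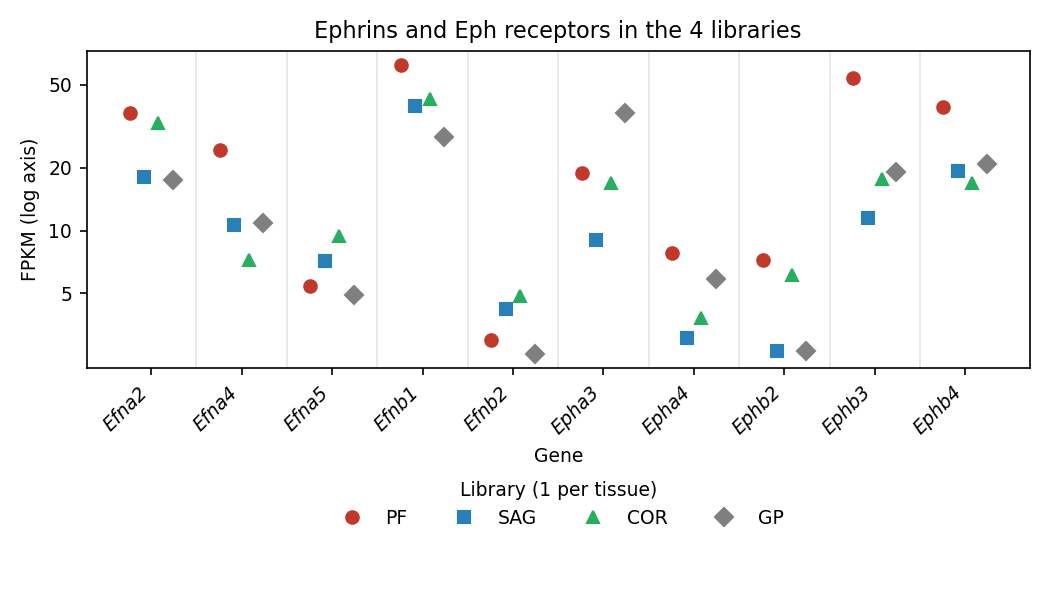
FPKM (log axis) of the 10 ephrin and Eph receptor genes in the PF, SAG, COR, and GP libraries, with 1 point per library and no error bars because each tissue has 1 library. The PF point is the highest for 7 genes, the COR point for *Efna5* and *Efnb2*, and the GP point for *Epha3*.

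The libraries differed in ways that bear on these values. FPKM of 1 or more was listed for 11402 to 12263 genes, and FPKM summed to between 447174 in SAG and 550958 in PF. The value of 1 fragment, read from the lowest values multiplied by transcript length, was 0.0583 FPKM-kilobases in PF and 0.0251 to 0.0303 in the others, so PF had about 43.0% of the depth of SAG. By this estimate every value of the 10 genes rested on about 222 fragments or more, the fewest being those of *Efnb2* in PF, and no gene of the 10 was listed at 0. Chondrocyte markers summed to 4162 FPKM in SAG and 3046 in GP, against 167 in PF and 125 in COR. Among them *Acan* differed less, at 25.9 in SAG and 23.3 in PF. Choroid plexus markers summed to 5414 in SAG against 135 to 515 elsewhere. *Ttr* made up most of the SAG sum, at 5103, while *Aqp1* was lowest in SAG, at 11.9, and *Enpp2* highest in GP, at 83.0. All 6 osteoblast lineage markers were highest in COR, a library that lists *Col1a1*, *Col3a1*, and *Sparc* at 0 where each other library has 100 FPKM or more. In bulk samples, fewer cells of a type and less RNA per cell cannot be told apart.

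Promoters are shown for the 3 genes whose highest and lowest libraries lay 3-fold or more apart, *Ephb3*, *Efna4*, and *Epha3*. Each runs from 250 bases before to 50 bases after a transcription start annotated by RefSeq on GRCm38.p6, and is written along the gene's own strand, with capitals for the GC box GGGCGG on either strand. *Ephb3* lies at chr16:21204545-21204844 on the plus strand, *Efna4* at chr3:89337979-89338278 on the minus strand, and *Epha3* at chr16:63864126-63864425 on the minus strand.
Ephb3: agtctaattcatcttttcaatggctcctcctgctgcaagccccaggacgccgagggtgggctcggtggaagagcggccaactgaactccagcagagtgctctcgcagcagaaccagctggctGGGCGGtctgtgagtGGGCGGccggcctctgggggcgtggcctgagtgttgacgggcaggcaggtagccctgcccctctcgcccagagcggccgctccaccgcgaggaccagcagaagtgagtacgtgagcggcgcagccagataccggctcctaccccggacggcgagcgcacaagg
Efna4: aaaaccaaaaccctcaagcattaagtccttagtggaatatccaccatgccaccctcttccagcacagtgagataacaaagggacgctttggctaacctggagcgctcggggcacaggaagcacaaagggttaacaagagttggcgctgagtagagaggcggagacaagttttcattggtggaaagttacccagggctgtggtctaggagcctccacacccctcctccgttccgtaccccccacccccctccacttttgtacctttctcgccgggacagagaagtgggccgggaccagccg
Epha3: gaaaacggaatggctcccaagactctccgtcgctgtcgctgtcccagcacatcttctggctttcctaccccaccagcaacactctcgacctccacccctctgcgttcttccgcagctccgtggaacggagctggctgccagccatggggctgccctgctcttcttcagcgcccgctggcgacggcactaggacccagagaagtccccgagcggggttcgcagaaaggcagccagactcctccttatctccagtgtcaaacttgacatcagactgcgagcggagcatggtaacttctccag
The *Ephb3* window holds 2 GC boxes, and those of *Efna4* and *Epha3* hold none. Over the windows of all 10 genes, 6 hold a GC box, next to 35.7% of 32851 RefSeq windows. The E-box CANNTG, the motif of helix-loop-helix factors, is in 4 windows, next to 72.3%, and TATAAA is in 1, next to 13.6%. No GC box overlapped an E-box. GC content of the 10 windows was from 55.7% for *Efna4* to 74.7% for *Efna2*, and the median of all windows was 52.7%. Such matches describe letters in a window and say nothing of a factor bound there.

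A-class ligands differed among the libraries in 2 ways. *Efna4* (mm9 chromosome 3, 89137312 to 89141950, minus strand) encodes ephrin-A4 and reached 24.2 FPKM in PF, followed by 10.9 in GP, 10.6 in SAG, and 7.23 in COR. PF was thus 3.35-fold above COR, 2.28-fold above SAG, and 2.23-fold above GP, while SAG and GP lay close together. An antisense model, *4731419I09Rik*, covers 10.5% of the exon bases of *Efna4*, and both directions of transcription cannot be told apart if reads carry no strand. *Efna2* (chromosome 10, 79642227 to 79652755, plus strand), the gene of ephrin-A2, was at 36.6 FPKM in PF, 32.8 in COR, 18.1 in SAG, and 17.4 in GP. The libraries fell into a higher pair, PF and COR, and a lower pair, SAG and GP.

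*Efna5* (chromosome 17, 62953533 to 63230666, minus strand), whose product ephrin-A5 also binds EphB2, went another way. It reached 9.45 FPKM in COR, followed by 7.16 in SAG, 5.44 in PF, and 4.91 in GP. COR was 1.92-fold above GP, and the range of *Efna5* over the 4 libraries was 0.82 on the log2(FPKM + 1) scale, against 1.62 for *Efna4*.

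Both B-class ligands among the 10 genes were lowest in GP, as was *Efnb3*, the other B-class ligand of the family, at 1.22 FPKM. *Efnb1* (chromosome X, 96331469 to 96344330, plus strand) had the highest mean FPKM of the 10 genes, 43.1 over the 4 libraries, and its 28.2 FPKM in GP compares with 39.4 in SAG, 42.6 in COR, and 62.1 in PF. COR was 1.51-fold above GP and SAG 1.40-fold, and PF differed from GP by 1.11 on the log2(FPKM + 1) scale. *Efnb2* (chromosome 8, 8617434 to 8661239, minus strand) had the lowest mean, 3.66 FPKM, and stood at 2.56 in GP, 3.00 in PF, 4.22 in SAG, and 4.85 in COR. Levels of *Efnb1* were 8.78 to 20.7 times those of *Efnb2* in the same library, with the widest gap in PF. *Efna2* and *Efna5* were also lowest in GP, *Efna2* by a margin of 0.05 below SAG on the log2(FPKM + 1) scale and *Efna5* by 0.12 below PF. In all, 4 of the 10 genes were lowest in GP, each of them an ephrin, next to 17.3% of all genes. After the GC correction *Ephb2* joined them, giving 5 of 10 next to 18.4%.

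Among EphA receptors, *Epha3* (chromosome 16, 63543364 to 63863984, minus strand) was the only one of the 10 genes highest in GP. Its values were 36.8 FPKM in GP, 18.9 in PF, 16.8 in COR, and 9.05 in SAG. GP was 4.07-fold above SAG, 2.19-fold above COR, and 1.94-fold above PF. SAG and GP, the libraries with the high chondrocyte marker sums, held the lowest and highest values of this receptor. Any part of chondrocytes in these values was not tested. *Epha4* (chromosome 1, 77363760 to 77511663, minus strand), which binds ephrins of both classes, was at 7.83 FPKM in PF, 5.88 in GP, 3.80 in COR, and 3.05 in SAG. PF was 2.57-fold above SAG and 2.06-fold above COR.

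*Ephb2*, *Ephb3*, and *Ephb4* were each highest in PF as deposited, by margins that ranged widely. *Ephb3* (chromosome 16, 21204828 to 21223378, plus strand) was at 53.8 FPKM in PF, followed by 19.1 in GP, 17.7 in COR, and 11.5 in SAG. PF was 4.69-fold above SAG, 3.03-fold above COR, and 2.81-fold above GP, the widest suture difference of the 10 genes. *Ephb4* (chromosome 5, 137791337 to 137819897, plus strand), the receptor of ephrin-B2, was at 39.0 FPKM in PF, above 20.9 in GP, 19.4 in SAG, and 17.0 in COR. *Ephb2* (chromosome 4, 136203454 to 136391903, minus strand) was at 7.20 FPKM in PF and 6.12 in COR, against 2.64 in SAG and 2.66 in GP. This is the split seen for *Efna2*, with PF and COR above SAG and GP.

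Since *Efnb2* and *Ephb4* also mark arterial and venous endothelium, endothelial markers were read beside them. Of the 8 markers, *Pecam1*, *Tie1*, *Tek*, and *Emcn* were below 1 FPKM in every library and *Cldn5* reached 1.0 in COR alone, while *Kdr* was at 14.9 in SAG and 2.12 in PF and *Cdh5* at 1.68 in PF, both below 1 in the remaining libraries. Their sum was 33.9 FPKM in PF, 17.7 in SAG, 12.5 in GP, and 4.81 in COR. It was highest where *Ephb4* was highest, mainly through *Esam* at 29.5 FPKM, while *Kdr* made up most of the SAG sum. *Efnb2* went the other way, at 4.85 FPKM in COR, where the sum was lowest, and 3.00 in PF. Leukocyte and osteoclast markers summed to 623 FPKM in PF, 604 in GP, 508 in COR, and 246 in SAG. *Acp5*, at 69.1 FPKM in PF against 14.3 to 30.5 elsewhere, *Cd68*, at 3.63 in PF and 3.01 in SAG, and *Ptprc*, at 0.57, were highest in PF. *Ephb4* was also highest in PF, and *Efnb2* was not. *Ctsk* was highest in GP at 576 FPKM, and *Csf1r*, *Calcr*, and *Oscar* stayed below 1. Mural cell markers summed to 559 FPKM in PF and 50.4 to 435 in the others, of which *Acta2* made up most. Of the 6 mural markers, 4 were highest in PF. *Rgs5* was highest in GP, at 10.8 FPKM against 7.50 in PF, and *Cspg4* was lowest in PF, at 8.81 FPKM against 19.7 in COR. The part of these cells in the values of the 10 genes was not tested.

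Pairs of libraries were then compared on the log2(FPKM + 1) scale, counting a difference of at least 3-fold, or 1.58, with 1 FPKM or more in 1 of the 2 libraries. Of the 10 genes, 3 passed in at least 1 of the 6 pairs, next to 24.7% of all genes, a share close to the background. Between PF and SAG, 1 of 10 passed, *Ephb3* at 2.14, next to 15.7% of all genes. Between PF and COR, 1 of 10 passed, *Efna4* at 1.62, next to 11.7%, and *Ephb3* at 1.55 fell just short. *Epha3* passed between GP and SAG at 1.91, next to 8.66%. None of the 10 passed between COR and SAG, where 9.25% of all genes did, between GP and PF, where 12% did, or between GP and COR, where 4.4% did.

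Smaller differences ran mostly one way between PF and SAG. There 8 of 10 genes were higher in PF, with *Efna5* and *Efnb2* lower, next to 6883 of all 13490 genes compared. The median difference was 0.98 against 0.03 over all these genes. PF was above GP for 9 of 10 genes, all but *Epha3*, next to 6719 of 13101 over all genes. The median of GP minus PF was -0.95 against -0.03 over all genes. After the GC correction it was -0.62 against -0.01, and 9 of 10 genes were again higher in PF. Between PF and COR 8 of 10 were higher in PF, next to 6722 of 12853 over all genes. The median was 0.37 against 0.05, since *Efna2*, *Epha3*, and *Ephb2* differed by 0.20 or less. COR minus SAG had a median of 0.30 against -0.02. GP minus SAG, at 0.02 against -0.03, and GP minus COR, at -0.24 against -0.02, had medians nearer to those of all genes. Comparisons that share a library share its errors, so these medians are not separate evidence.

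GC content of transcripts moved with the differences, most of all with those that involve PF. Genes that reached 5 FPKM were sorted into 8 equal groups by the GC content of the longest coding transcript. The median of PF minus SAG went from -0.49 in the poorest group (33.1% to 43.0% GC) to 0.60 in the richest. The same medians went from -0.34 to 0.33 for PF minus COR and from 0.44 to -0.45 for GP minus PF. Pairs without PF had smaller trends, from -0.15 to 0.25 for COR minus SAG, from 0.09 to -0.14 for GP minus COR, and from -0.07 to 0.12 for GP minus SAG. *Efna2*, *Efnb1*, and *Ephb4* belong to the group richest in GC, *Efna4*, *Ephb2*, and *Ephb3* to the next, and *Efna5*, *Efnb2*, *Epha3*, and *Epha4* to the 3 poorest.

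**Figure D2:**
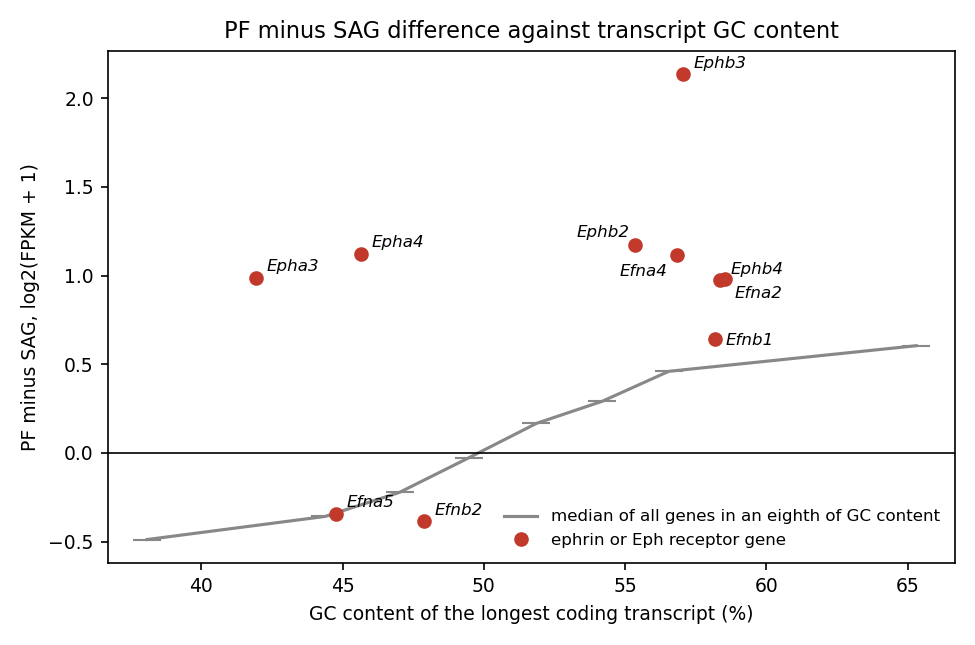
Difference PF minus SAG on the log2(FPKM + 1) scale against the GC content (%) of the longest coding transcript. Red points are the 10 genes, and grey ticks joined by a line are the medians of all genes in 8 groups of GC content, placed at the middle of each group. *Epha3* and *Epha4* lie 0.99 and 1.12 above 0 where the line is below 0, and *Efna5* lies on the line.

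With a loess trend on GC content removed from each library, PF moved further from SAG and COR for the EphA receptors. For most EphB receptors and ephrins, PF moved closer to them. PF minus SAG became 1.45 for *Epha3* and 1.44 for *Epha4*, from 0.99 and 1.12. For *Ephb3* it was 1.64 after the correction, still past 3-fold, while *Ephb4* fell to 0.42, *Efna2* to 0.41, and *Efnb1* to 0.09. Between PF and COR, *Efna4* was at 1.34 and *Ephb3* at 1.27 after the correction, and 0 of 10 genes passed 3-fold. *Efna2* and *Ephb2* then had their highest values in COR. *Epha3* was at 1.95 for GP minus SAG, a pair with little GC trend, compared with 1.91 before. After the correction the median of the 10 genes was 0.52 for PF minus SAG, against -0.0037 for all genes, and 0.36 for PF minus COR, against 0.04. In PF, 9 of 10 were then higher than in SAG, among them *Efna5* by 0.03 and *Efnb1* by 0.09. Over all genes, 6023 were higher and 6067 lower. Against COR, 6 of 10 were higher in PF, next to 6043 higher and 5495 lower over all genes, a share near the background.

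**Figure D3:**
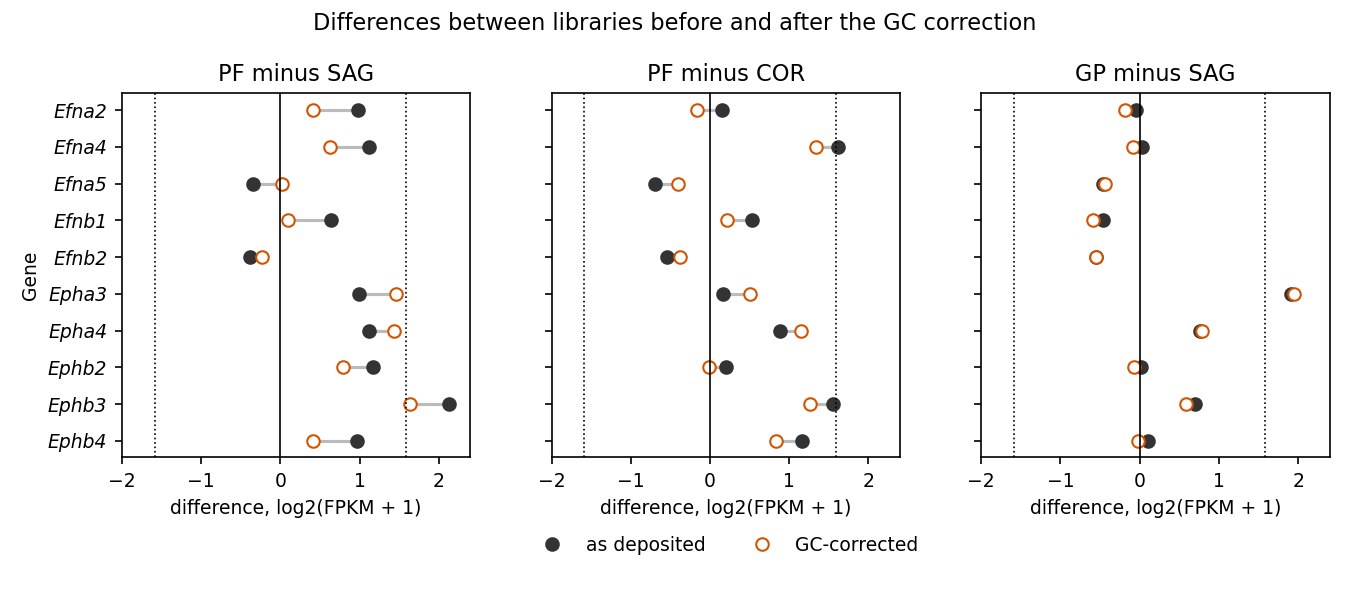
Differences between libraries on the log2(FPKM + 1) scale for the 10 genes, as deposited (filled points) and after the GC correction (open points), for PF minus SAG, PF minus COR, and GP minus SAG. Dotted lines mark 3-fold. *Ephb3* stays past 3-fold for PF minus SAG, *Efna4* moves from 1.62 to 1.34 for PF minus COR, and *Epha3* stays near 1.9 for GP minus SAG.

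The make-up of the family within a library does not depend on how libraries are scaled to each other. Over all 22 genes, ephrins summed to 199.5 FPKM in PF, 136.9 in COR, 127.9 in SAG, and 112.8 in GP. *Efnb1* and *Efna1* were the leading ligands, *Efnb1* with 25.0% of ephrin FPKM in GP and 30.8% to 31.1% in the sutures. *Efna4* held 12.2% in PF and 5.28% in COR, and *Efna2* from 14.1% in SAG to 23.9% in COR. B-class ephrins made up 39.5% in SAG, 38.3% in PF, 37.4% in COR, and 28.3% in GP.

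Receptors shifted more than ligands. Receptor FPKM summed to 164.0 in PF, 97.9 in GP, 83.9 in SAG, and 75.1 in COR. *Ephb3* led in PF with 32.8% of receptor FPKM, *Ephb4* in SAG with 23.1%, *Ephb3* in COR with 23.6%, and *Epha3* in GP with 37.6%. *Ephb4* kept between 21.4% and 23.8% in all 4 libraries. EphB receptors made up 46.8% in GP, 59.6% in COR, 62.3% in SAG, and 71.6% in PF. GC correction changed this order, to 62.3% in PF and 67.2% in SAG, with GP still lowest at 50.3%.

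**Figure D4:**
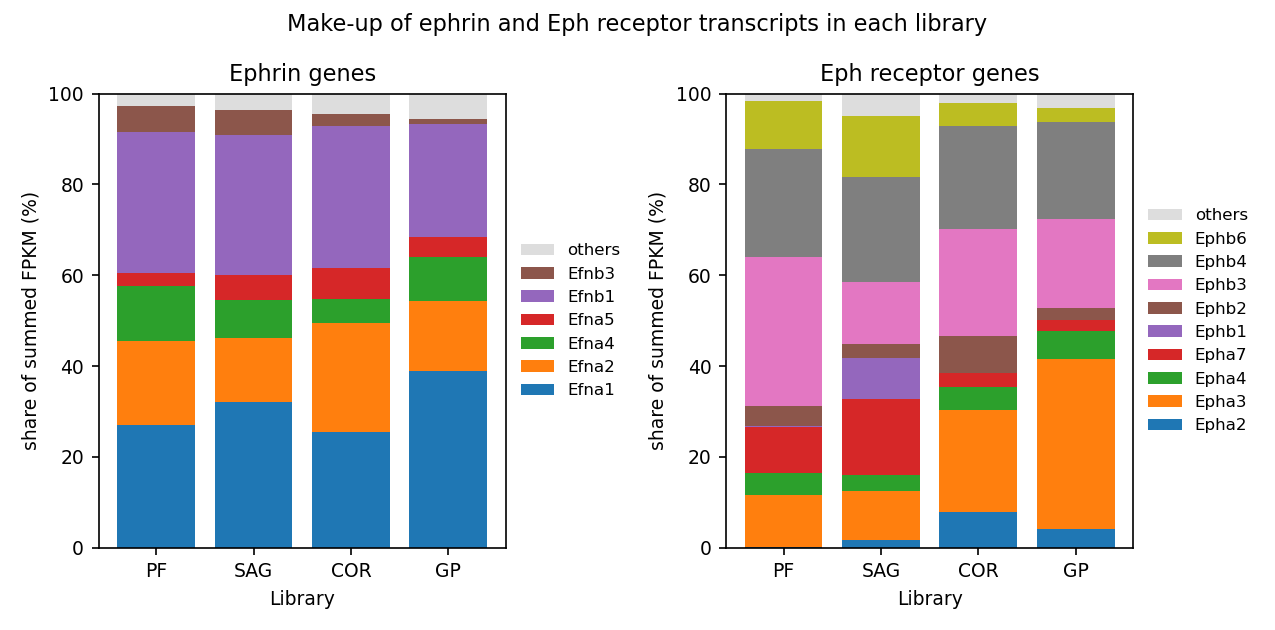
Share (%) of the summed FPKM of all 8 ephrin genes (left) and all 14 Eph receptor genes (right) that each gene contributes in each library; "others" are genes below 5% in every library. *Efnb1* takes 25.0% to 31.1% of the ephrin bars, and *Epha3* takes 37.6% of the GP receptor bar against 10.8% to 22.4% in the sutures.

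The remaining 12 genes of the family include some with wider differences. Of these, 9 reached 1 FPKM in a library and 6 of the 9 passed 3-fold in some pair, next to 24.7% of all genes. *Efna1*, the gene of ephrin-A1, was the most even, at 54.2 FPKM in PF, 44.0 in GP, 41.0 in SAG, and 35.0 in COR. *Epha7* (chromosome 4, 28740281 to 28894649) separated the midline sutures from the other tissues, at 16.7 FPKM in PF and 14.0 in SAG but 2.2 in COR and 2.36 in GP. *Ephb6*, whose kinase domain is inactive, followed the same order of high and low pairs, at 17.1, 11.3, 3.86, and 3.01 FPKM in PF, SAG, COR, and GP, and *Efnb3* was at 11.3, 6.86, 3.70, and 1.22. *Epha2* was the one with PF lowest, at 0.201 FPKM, or about 13 fragments, against 1.44 in SAG, 5.98 in COR, and 3.99 in GP.

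*Ephb1* reached 1 FPKM in SAG alone, at 7.48 against 0.0609 to 0.39 elsewhere. Of 9 neuronal markers, 3 were highest in that library, *Snap25*, *Syt1*, and *Map2*, at 2.21, 1.80, and 4.43 FPKM. *Tubb3* and *Gap43* were lowest there, at 1.28 and 8.41 FPKM. *Dcx* and *Elavl4* were highest in PF, and *Stmn2* and *Nefl* in GP, each below 1 FPKM. The sum over the 9 markers was 18.8 FPKM in SAG and 18.6 to 83.0 in the others. Any part of neuronal cells in the *Ephb1* value was not tested. *Epha8* was at 1.89 FPKM in SAG and 0.0606 to 1.15 elsewhere, *Epha5* at 0.345 in COR and 1.62 to 2.72 elsewhere, and *Efna3* at 0.561 in SAG and 1.28 to 3.69 elsewhere. *Epha1*, *Epha6*, and *Epha10* stayed below 1 FPKM in every library.

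**Figure D5:**
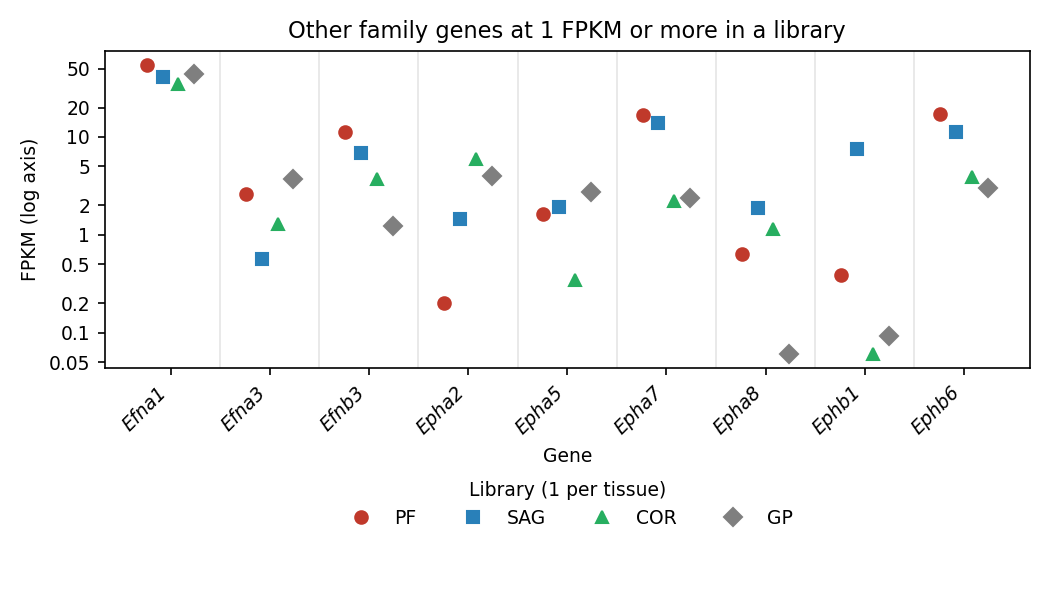
FPKM (log axis) of the 9 other ephrin and Eph receptor genes that reached 1 FPKM in a library, with 1 point per library and no error bars. *Epha7*, *Ephb6*, and *Efnb3* have their PF and SAG points above those of COR and GP, *Epha2* has its PF point lowest at 0.201, and *Ephb1* stands out in SAG at 7.48.

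Signalling partners were read from a list of 42 genes, of which 39 reached 1 FPKM in a library. Of these, 7 passed 3-fold in some pair, next to the 24.7% of all genes given above. Between PF and SAG 1 was higher and 1 lower in PF of 38 compared, next to 15.7% of all genes in either direction, and between PF and COR 0 were higher and 3 lower of 38, next to 11.7%. COR was higher than SAG for 4 and lower for 0 of 34, next to 395 higher and 782 lower over all genes, or 9.25%. GP was higher for 3 of 39 against PF, 2 of 36 against SAG, and 1 of 36 against COR, and lower for 0, next to 12%, 8.66%, and 4.4%. The widest was *Chn1*, the gene of the Rac regulator α-chimaerin that acts downstream of EphA4, at 0.225 FPKM in PF, 6.18 in GP, 9.10 in SAG, and 10.3 in COR. Its level was thus lowest in the library where *Epha4* was highest, and the difference from SAG was -3.04 as deposited and -2.82 after the GC correction.

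*Fyn*, a Src-family kinase, was at 69.1 FPKM in COR and 19.7 to 30.5 elsewhere, and *Pak1*, a kinase that acts on the cytoskeleton, was at 35.5 in COR and 11.1 to 21.0 elsewhere. Exchange factors and GTPase regulators differed in several ways. *Arhgef19* was lowest in SAG, at 7.87 FPKM against 19.0 to 34.4, and *Chn2* was also lowest in SAG, at 1.84 against 4.45 to 9.90. *Ngef*, the gene of ephexin-1, an exchange factor bound by EphA4, was highest in GP at 6.91 FPKM, then 5.67 in COR, 2.02 in SAG, and 1.05 in PF. *Arhgef16*, the seventh gene, stayed at 3.80 FPKM or less. The GTPases themselves were the most abundant of the list, with means of 334.9 FPKM for *Cdc42*, 212.5 for *Rac1*, and 190.8 for *Rhoa*, and none differed 3-fold. *Adam10*, a protease that sheds ephrins, was lowest in PF at 8.01 FPKM, against 14.5 to 19.3 elsewhere, short of 3-fold in every pair. Its PF minus SAG difference was -0.78 as deposited and -0.32 after the GC correction, and PF minus COR -1.17 and -0.83.

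Genes nearest in pattern were sought among 9801 genes that reached 5 FPKM, by Euclidean distance over the 4 mean-centred log2(FPKM + 1) values. Nearest to *Ephb3* were *Frk* at 0.12, *Fzd2*, a Wnt receptor, at 0.13, and *Rab7l1* at 0.14. *Fzd2* was at 58.2 FPKM in PF, 20.2 in GP, 19.2 in COR, and 13.7 in SAG. Nearest to *Epha3* were *Lars2* at 0.17, *Fam20a* at 0.19, and the secreted semaphorin *Sema3c* at 0.25. *Efna4* was nearest to *Kctd12b* at 0.06, *Cdc42ep4* at 0.08, and *Zc3h8* at 0.10. Within a distance of 0.5 there were 102 genes for *Ephb3*, 27 for *Epha3*, and 227 for *Efna4*, so with 4 libraries a close match is common.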

How the data were processed

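RNA of sorted cells was sequenced from 1 library per tissue. By the methods and the submitters' processing notes, the authors aligned reads with STAR 2.5.1b to mm9 and estimated FPKM with Cuffdiff (Cufflinks 2.2.1) on the iGenomes gene model; each deposited file lists 1 FPKM for each symbol. How the libraries were scaled to each other is not given in the sources used here. Samples were grouped by their titles. The genes and lists were chosen with earlier results of these data known.

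Differences were taken as log2(FPKM + 1), which understates low genes, where either library compared reached 1 FPKM. With 1 library per tissue no test and no error was computed. Named were all 10 genes, other family genes that reached 1 FPKM, signalling genes past 3-fold that reached 5 FPKM and the 3 most abundant, and the 3 nearest genes. *Adam10* and *Arhgef16* were named after their values were seen. GC content and length are of the longest coding transcript in GENCODE on NCBIM37, the assembly of mm9, found for 80.8% of symbols and all 22 family genes. Its trend was fitted by loess (span 0.3) on genes that reached 5 FPKM in a library. The steps were tried on simulated data with planted changes well past 3-fold and little noise. That run does not show how they treat differences near 3-fold or low values. Depth per library is not given, so no counting interval was computed. Python 3.11.15, numpy 2.4.6, pandas 2.3.3, statsmodels 0.14.6, and matplotlib 3.10.9 were used. Alternatives were the pseudocount, scaling, filter, threshold, GC correction, and leaving out PF or SAG.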

Additional observations from a re-analysis of the deposited data

How the results depend on the processing

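No paired analysis was possible because every tissue is represented by 1 library. Of the 10 genes, 3 passed 3-fold in some pair. This became 8 at 2-fold, 4 relative to *Gapdh*, 2 after the GC correction, 1 without the PF library, and 1 without the SAG library. For PF vs SAG the count of 1 became 3 relative to *Gapdh* and 4 at 2-fold. For PF vs COR the count of 1 became 2 with a pseudocount of 0.1, with none, and relative to *Gapdh*, 3 at 2-fold, and 0 after the GC correction. The count of 0 for GP vs PF became 1 relative to *Gapdh* and 5 at 2-fold, and that of 0 for GP vs COR became 1 at 2-fold. Counts for COR vs SAG (0) and GP vs SAG (1) did not move under any alternative run. Of the other family genes, 6 passed, with 3 at FPKM of 1 or more in both libraries and 4 to 8 under the remaining alternatives. Of the signalling list, 7 passed, with 13 at 2-fold, 4 without the SAG library, and 5 to 10 under the remaining alternatives. After the GC correction the ephrin-B share was 40.5% in SAG, 37.0% in PF, 37.3% in COR, and 28.7% in GP, and the EphB share 67.2%, 62.3%, 60.1%, and 50.3% in the same order. Of 60 differences between libraries for the 10 genes, the sign changed for 5 relative to *Gapdh* (none above 0.39) and for 7 after the GC correction (none above 0.34), and for 0 with another pseudocount, median-ratio scaling, or quantile normalization. Division by *Gapdh*, itself 0.53 lower in PF than in SAG, raises every PF vs SAG difference. The number of genes highest in PF, an alternative chosen after seeing the data, was 7 under each scaling and 5 after the GC correction. PF was the shallowest library, which limits values of few fragments such as *Epha2* in PF.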
